A study of Mus musculus with 4 samples.

Results

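Gas5 and 9 Snhg genes (Snhg1, Snhg3, Snhg5, Snhg6, Snhg8, Snhg12, Snhg14, Snhg17 and Snhg20) are known as noncoding hosts of small nucleolar RNAs (snoRNAs). No snoRNA gene was listed within the span of Snhg20, which is kept here by its name. These 10 genes were taken by name from the 50559 genes of the count table. RNA-seq was available for mouse embryonic stem cells (ESCs), given in the sample labels as the line E14, after knockdown of Cnot1 by small interfering RNA (siCnot1, 2 libraries) or after a non-targeting siRNA (siNT, 2 libraries). Libraries came from poly(A)+ RNA collected 48 h after transfection. Both groups were grown on gelatin with leukemia inhibitory factor, the study's methods describe ESCs that carry a tdTomato transgene under the MERVL promoter, and which of the study's siRNAs against Cnot1 was used for these libraries is not named. The replicates are described as independent biological replicates.

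snoRNAs guide the chemical modification and processing of ribosomal RNA and other RNAs, and in mammals most are cut out of introns after splicing. In hosts such as Gas5 the spliced exons encode no conserved protein, and many host transcripts begin with a run of pyrimidines (a 5′ terminal oligopyrimidine, or TOP, start). Because ribosomes engage these exons and soon meet a stop codon, several spliced host RNAs are short-lived through nonsense-mediated decay (NMD). The CCR4-NOT complex, for which CNOT1 serves as scaffold, shortens poly(A) tails ahead of decay. The study made these libraries to see how the transcriptome responds to loss of Cnot1, and the values that follow are the steady-state level of the host RNAs.

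The start sites are shown because a TOP run is a sequence feature known from several of the hosts. Windows of 30 bases, 10 before and 20 from the annotated start, were read from RefSeq promoters of GRCm38.p6 on the transcribed strand, and the longest run of at least 6 consecutive C or T is in capitals. Snhg5 at chr9:88522878-88522907 (minus strand), Snhg8 at chr3:123508317-123508346 (minus), Gas5 at chr1:161035156-161035185 (plus, the downstream of 2 listed starts), Snhg1 at chr19:8723477-8723506 (plus), Snhg12 at chr4:132308668-132308697 (plus) and Snhg17 at chr2:158361490-158361519 (minus, 1 of 2 overlapping starts) held such a run. Snhg3 at chr4:132353667-132353696 (minus) is printed beside them as a host whose longest run was 5.
Snhg5: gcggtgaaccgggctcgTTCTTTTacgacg
Snhg8: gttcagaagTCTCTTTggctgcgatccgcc
Gas5: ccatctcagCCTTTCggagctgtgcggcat
Snhg1: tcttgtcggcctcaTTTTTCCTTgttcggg
Snhg12: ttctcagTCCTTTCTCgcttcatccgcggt
Snhg17: aagaccacagTTTCCTgtcgcgtggatgtg
Snhg3: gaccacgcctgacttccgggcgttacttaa
Of the 9 hosts found in the promoter table, 6 held a run in this window (66.7%), against 32.1% of 27025 genes and 62.3% of 61 ribosomal protein genes, the best known TOP genes. Snhg6 was not among the genes of that table. The run covered the annotated first base in 4 of the 9 (Gas5, Snhg8, Snhg12 and Snhg17), against 7.90% of all genes and 32.8% of the ribosomal protein genes, while that of Snhg1 began 4 bases and that of Snhg5 7 bases downstream. A run is a description of these letters, and the start used in these cells was not measured.

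The 10 hosts covered a wide range of levels, given here per exon length as FPKM (counts per kilobase of exon, scaled as for normalized CPM). In the siNT libraries Snhg1 was highest at 107 and 105 FPKM. Snhg5 at 86.0 and 82.3 lay within the range of Snhg3 at 77.5 and 88.5, so this pair could not be ordered. Gas5 came next at 77.1 and 69.9 FPKM, just under Snhg3. Snhg12 at 33.2 and 35.5 stood clear of its neighbours, while Snhg20 at 26.3 and 22.2 overlapped Snhg6 at 20.5 and 22.4, and Snhg17 at 12.4 and 11.9 overlapped Snhg8 at 11.1 and 12.5. Snhg14, whose listed exons total 24206 bp, was lowest at 0.781 and 0.870 FPKM. With siCnot1 the order at the top differed: Snhg1 stayed first at 93.5 and 98.9 FPKM, followed by Gas5 at 71.2 and 66.6, Snhg3 at 56.9 and 63.2 and then Snhg5 at 54.0 and 50.8, with no overlap between these neighbours.

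**Figure D1:**
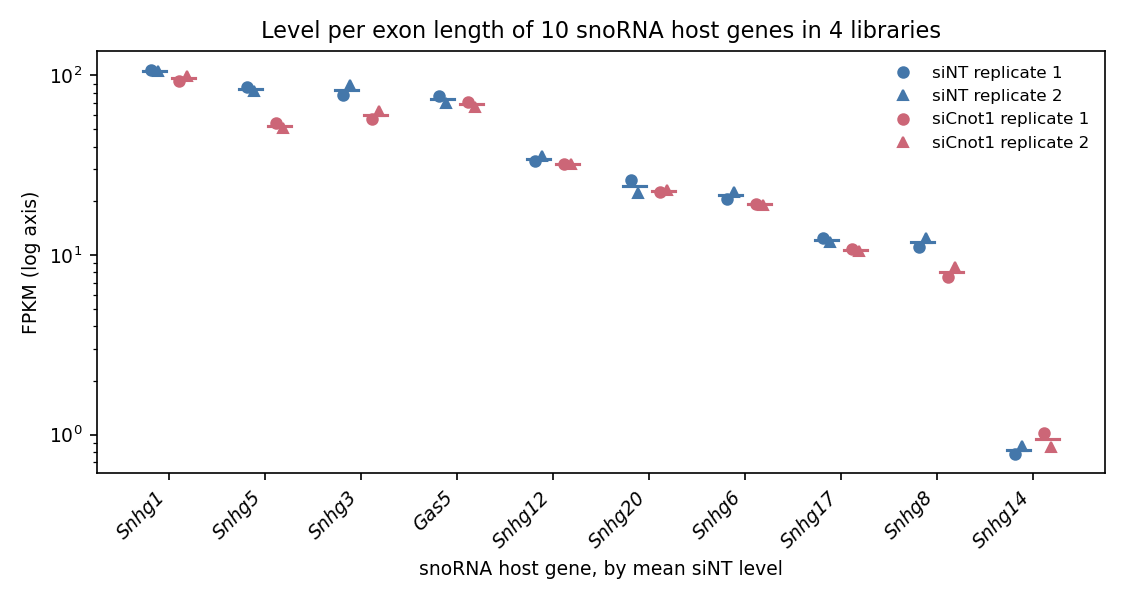
Level of each host in FPKM (log axis) in the siNT (blue) and siCnot1 (red) libraries, with circles for replicate 1, triangles for replicate 2 and bars for group means. Snhg5, Snhg3 and Snhg8 show both siCnot1 libraries clearly under both siNT libraries, while the points of Gas5, Snhg14 and Snhg20 overlap.

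The libraries were alike in depth, with 32135824 to 32557440 counts on genes, at which 3 counts correspond to 0.0921 to 0.0934 CPM. Cnot1 itself fell to 19.8% of the siNT level (log2 fold change -2.33, SE 0.0587, adjusted p = 2.37e-18 from edgeR). All 8 ESC markers examined were above 200 normalized CPM in every library, with a summed level of 6564 to 6784 in siNT and 5526 to 5868 in siCnot1, and 6 of the 8 were lower at an adjusted p under 0.05. Markers of fibroblasts summed to 8.93 to 12.2 normalized CPM in siNT and 12.7 to 13.3 in siCnot1, and Col1a1 among them was higher. For primitive endoderm the sums were 5.13 to 7.19 and 7.07 to 7.34. Trophectoderm markers (31.3 in both siNT libraries, 24.6 to 28.4 in siCnot1, with Krt8 lower), neural markers (31.0 to 31.8 and 28.0 to 29.7, with Pax6 lower) and the haematopoietic marker Ptprc (at most 0.128) were also low. No marker was at 0 in all 4 libraries, and the part of these shifts in the values of the host genes was not tested. Fewer cells of a type and less RNA per cell cannot be told apart in bulk libraries.

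Across the hosts, 3 fell after Cnot1 knockdown (Snhg5, Snhg3 and Snhg8), none rose, and 7 did not pass an adjusted p under 0.05. Over all 18144 genes tested, 14.7% were lower and 15.0% were higher by the same rule. All 10 hosts passed the filter on low counts. Beside the 0 higher hosts of edgeR's test, 0 were higher at an unadjusted p under 0.05, and 0 by DESeq2 or limma-voom. Scaled by library totals only, Snhg14 had a log2 fold change of 0.30, with an unadjusted p of 0.0163 and an adjusted p of 0.0525 from edgeR. Both siCnot1 libraries lay below both siNT libraries for 7 hosts and above for 0, where 31.2% of all tested genes were below and 32.7% above. With library totals only, 4 hosts were below (Snhg3, Snhg5, Snhg8 and Snhg17) and 1 above (Snhg14), where 21.0% of all tested genes were below and 43.4% above. The median log2 fold change of the hosts was -0.16, against 0.0084 for all tested genes, and 9 of 10 values were negative. By the study's rule of a log2 fold change of at least 1 in size, 0 hosts were called.

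The 10 hosts together took 331 and 328 normalized CPM in siNT and 274 and 269 in siCnot1, a decrease of the mean from 329 ± 2.13 to 272 ± 3.42 (SD, n = 2 per group). Snhg5 alone made up 55.5% of this difference, and Snhg5, Snhg3 and Snhg8 together 77.9%. The other 7 hosts summed to 201 and 196 normalized CPM in siNT and to 189 and 183 in siCnot1, 6.44% less. Scaled by library totals only, the same 7 summed to 194 and 189 CPM in siNT and 197 and 189 in siCnot1, with no decrease left. The split follows the test on the same values, so these shares are a description.

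**Figure D2:**
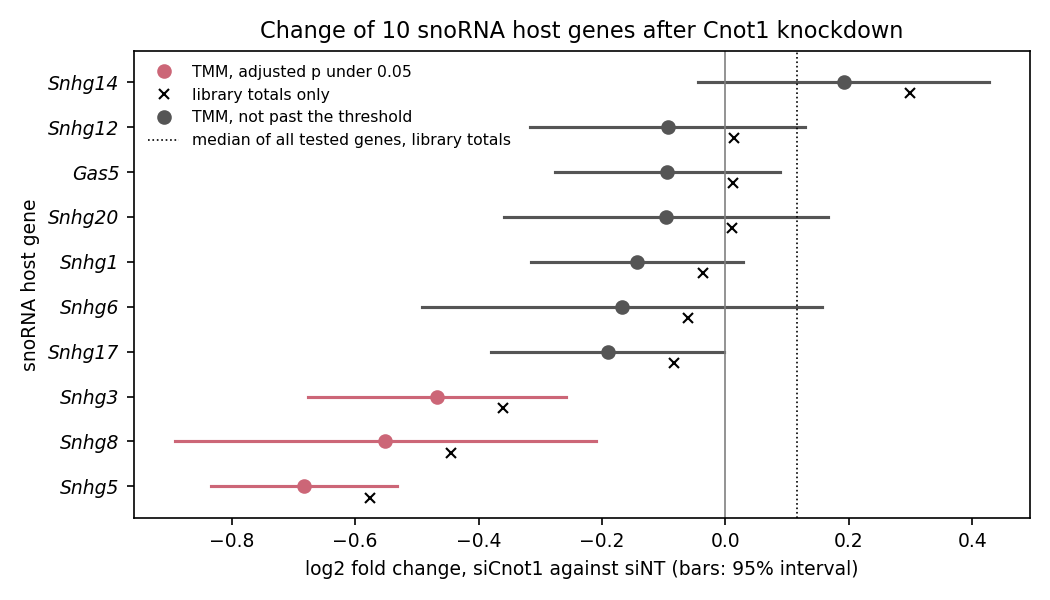
Log2 fold change of each host (siCnot1 against siNT) with its 95% interval under TMM scaling, in red where the adjusted p was under 0.05 and grey otherwise, with crosses for scaling by library totals only. The intervals of Snhg5, Snhg8 and Snhg3 lie well below 0, and that of Snhg17 ends just under 0 (-0.0025). Under either scaling 9 of 10 points lie below the median of all tested genes, since scaling shifts all genes nearly alike.

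Among hosts of box C/D snoRNAs, which guide ribose methylation, Snhg5 changed most. Snhg5 hosts U50-type snoRNAs and lies on chromosome 9 at 88403105 to 88404950 in the table's coordinates (5 merged exons, 1011 bp). It had 87.0 and 83.2 normalized CPM in siNT and 54.6 and 51.4 in siCnot1. The groups were far apart relative to their spread, and the log2 fold change was -0.68 (SE 0.0729, 95% interval -0.83 to -0.53, adjusted p = 2.31e-07 from edgeR). With any 1 library left out it stayed between -0.73 and -0.65, and the adjusted p remained at or under 0.0233.

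Gas5, first described as a transcript that accumulates when growth is arrested, is the host with the most exons after Snhg14 (chromosome 1, 160862171 to 160866109, 13 merged exons, 620 bp). Its values were 47.8 and 43.4 normalized CPM in siNT and 44.1 and 41.3 in siCnot1. The groups overlapped, since the first siCnot1 library was above the second siNT library. The log2 fold change was -0.094 (SE 0.0882, 95% interval -0.28 to 0.088, adjusted p = 0.465 from edgeR). Under this TMM scaling the interval holds neither a fall as large as that of Snhg5 nor a rise above 0.088. Its ends depend on the scaling, since with library totals only Gas5 was at 0.013 (SE 0.0885). Centred on the siNT mean over the 4 libraries, the genes with profiles nearest to that of Gas5 among 9500 genes were Crtc1, Acvr1b and Napa, at Euclidean distances of 0.0209, 0.0257 and 0.0300 in log2 units. With so few libraries many genes lie this close.

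Snhg1, a host of 8 annotated box C/D snoRNA genes (chromosome 19, 8700851 to 8703690, 10 merged exons, 476 bp), had 51.0 and 50.2 normalized CPM in siNT and 44.5 and 47.1 in siCnot1. Both siCnot1 libraries were lower, by an amount that did not pass the test (log2 fold change -0.14, SE 0.0831, 95% interval -0.32 to 0.029, adjusted p = 0.211 from edgeR). Snhg6 (chromosome 1, 10012250 to 10014343, 4 merged exons, 407 bp), which hosts Snord87, had 8.36 and 9.12 in siNT and 7.85 and 7.71 in siCnot1. Its groups did not overlap either, but at 258 to 286 counts per library the 95% interval of its log2 fold change was wide, from -0.49 to 0.16 (adjusted p = 0.463 from edgeR).

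Snhg14 was the single host with a positive value. It is the long imprinted transcript of the Prader-Willi and Angelman region, carries the Snord115 and Snord116 clusters, and spans 58922485 to 60099925 on chromosome 7 (172 merged exons). The values were 18.9 and 21.1 normalized CPM in siNT and 24.9 and 20.8 in siCnot1. The second siCnot1 library lay inside the siNT range, and the log2 fold change of 0.19 (SE 0.114, 95% interval -0.044 to 0.43, adjusted p = 0.224 from edgeR) did not pass. Its listed exons share 2800 bp with Snrpn on the same strand, a gene listed at only 1 to 3 counts per library, and 267 bp with Ube3a on the opposite strand. How reads on shared exons were assigned is not given in the sources used here, so the count of Snhg14 is uncertain.

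Hosts of box H/ACA snoRNAs, which guide pseudouridylation, included both of the remaining hosts that fell. Snhg3 hosts Snora73a and Snora73b, the U17 RNAs needed for processing of the small-subunit ribosomal RNA, and lies at 132079244 to 132080997 on chromosome 4 (3 merged exons, 437 bp). Snhg3 had 33.9 and 38.7 normalized CPM in siNT and 24.9 and 27.6 in siCnot1. The gap between the groups was larger than the spread within either (log2 fold change -0.47, SE 0.101, 95% interval -0.68 to -0.26, adjusted p = 0.00105 from edgeR). Without siNT replicate 2 or without siCnot1 replicate 1 the fall no longer passed, at adjusted p = 0.0889 and 0.0692 from edgeR.

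Snhg8 (chromosome 3, 123301201 to 123301985) is listed as 1 exon of 785 bp that contains Snora24, which had 0 counts in every library. Snora24 shares 130 bp, 16.6% of that exon, on the same strand. How reads on shared bases were assigned is not given, so this 0 does not show that Snora24 is absent. The count of Snhg8 may leave out that stretch. The host had 8.68 and 9.79 normalized CPM in siNT and 5.91 and 6.69 in siCnot1. Both siCnot1 libraries were lower (log2 fold change -0.55, SE 0.165, 95% interval -0.89 to -0.21, adjusted p = 0.0135 from edgeR). At 198 to 307 counts per library this is the least firm of the 3 calls: it failed with each library left out in turn (adjusted p 0.0548 without siCnot1 replicate 2, 0.0843 without siNT replicate 1, 0.142 without siCnot1 replicate 1 and 0.160 without siNT replicate 2) and without the filter on low counts (0.0726).

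Snhg17 (chromosome 2, 158195620 to 158203442, 6 merged exons, 3172 bp) had 39.5 and 37.6 normalized CPM in siNT and 34.3 and 33.3 in siCnot1. The libraries separated without overlap, and the log2 fold change of -0.19 (SE 0.0910) had an unadjusted p of 0.0473 but an adjusted p of 0.122 from edgeR, so it was not called. Snhg12, which hosts snoRNAs of both classes (chromosome 4, 132035989 to 132038335, 5 merged exons, 606 bp), had 20.1 and 21.5 in siNT and 19.5 and 19.5 in siCnot1. Its log2 fold change was -0.094 (SE 0.107, 95% interval -0.32 to 0.13, adjusted p = 0.562 from edgeR). Snhg20 (chromosome 11, 116967609 to 116969781, 2 merged exons, 600 bp) had 15.8 and 13.3 in siNT and 13.4 and 13.8 in siCnot1, with the siCnot1 values inside the siNT range (log2 fold change -0.096, SE 0.127, adjusted p = 0.624 from edgeR). Among these 3 hosts only Snhg17 and Snhg12 had siCnot1 libraries both below siNT.

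Scaling shifted these small values. The siNT libraries had TMM factors of 0.964 and 0.963 and the siCnot1 libraries of 1.04 and 1.03, and scaling by library totals only moved the median of all tested genes by 0.107, to 0.12. The calls over all genes then moved from 2719 higher and 2668 lower (50.5% higher) to 3999 and 1563 (71.9% higher). Under that scaling Gas5, Snhg12 and Snhg20 had slightly positive log2 fold changes of 0.013, 0.013 and 0.011. Snhg14 was at 0.30 with an adjusted p of 0.0525 from edgeR, just short of a call. The same 3 hosts, Snhg3, Snhg5 and Snhg8, were lower. Relative to the median of all tested genes, the median of the hosts was -0.16 under both scalings, and 9 of 10 hosts lay below it. A change of scaling shifts all genes nearly alike, so this sameness was built in and is no separate support.

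The hosts were set beside other genes of like exon length. Listed exons totalled 407 to 1011 bp in 8 of the hosts, all but Snhg14 and Snhg17, and their median log2 fold change was -0.16. The 1530 tested genes in the same length range also had a median of -0.15, and 17.2% of them were lower and 4.51% higher. The median of the hosts was thus like that of other genes with short exons, while 3 of the 8 were called lower, and the part of length in the result was not tested. Calls fell on hosts with and without a pyrimidine run: Snhg8 had one over the annotated start, Snhg5 one downstream of it, and Snhg3 none in the window.

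The intronic snoRNA genes gave a readout beside the spliced exons. By RefSeq gene type, 233 snoRNA genes of 46 to 205 bp lie in introns of 8 of the hosts, 206 of them in Snhg14, and 23 passed the filter on low counts. Of the 206 in Snhg14 only 3 had any count, mostly Snord64 and LOC115486845. The genes listed as Snord116 had 0 counts in every library. None of the 23 was called in either direction by edgeR, DESeq2 or limma-voom, and 0 had an unadjusted p under 0.05 in edgeR. Their log2 fold changes ran from -0.30 to 0.95 with a median of -0.069. Mature snoRNAs lack a poly(A) tail, so in poly(A)+ libraries such counts can come from unspliced host RNA as well as from snoRNAs, and these sources cannot be told apart here.

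Snhg3 had the most of these counts relative to its exons. Snora73a had 10.3 and 9.95 normalized CPM in siNT and 9.37 and 9.95 in siCnot1 (log2 fold change -0.07, adjusted p = 0.77 from edgeR), and Snora73b 12.9 and 11.96 against 10.8 and 12.2 (log2 fold change -0.11, adjusted p = 0.58). These copies are near-identical, so the split of reads between them is uncertain, and their sum was 722 and 687 counts in siNT and 677 and 740 in siCnot1. Per 100 counts on Snhg3 exons that is 68.5 and 56.7 in siNT and 81.3 and 80.1 in siCnot1, higher in both siCnot1 libraries. The summed snoRNA level itself changed little (log2 ratio of mean normalized CPM -0.092). The higher ratio thus mostly restates the fall of Snhg3 already called. For the ratio, an exact two-sided permutation test over the 4 libraries gave p = 0.333. That is the smallest that 2 against 2 can give, so the difference in ratio cannot reach a threshold of 0.05.

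The same ratio was higher in both siCnot1 libraries for 4 of the 8 hosts with intronic snoRNA genes. How often this holds for other genes was not examined, so the count is a description and no result about the hosts. For Gas5 the ratio was 44.8 and 43.6 per 100 host counts in siNT and 50.3 and 46.2 in siCnot1. Snhg1 had 28.8 and 30.6 against 32.2 and 33.4, and Snhg14 had 2.72 and 3.18 against 3.60 and 3.74. In the means these ratios were higher by 9.18% for Gas5, 10.3% for Snhg1 and 24.4% for Snhg14, against 28.9% for Snhg3. That of Snhg14 rested on 16 to 30 intronic counts per library, from 3 of its 206 snoRNA genes. The exact permutation p was again 0.333 for each. For Snhg12 (35.7 and 30.0 against 37.2 and 31.3), Snhg17 (5.46 and 5.93 against 7.06 and 5.92) and Snhg5, with at most 11 intronic counts in a library, the groups overlapped. Snhg6 had the opposite order, 4.23 and 3.15 in siNT and 2.66 and 2.33 in siCnot1, on 6 to 11 counts per library.

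**Figure D3:**
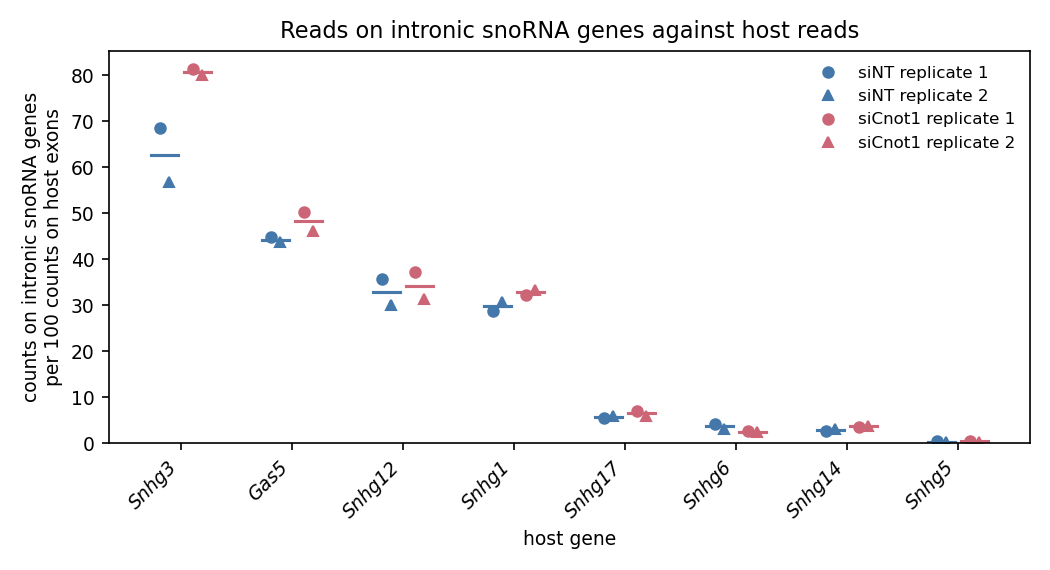
Counts on intronic snoRNA genes per 100 counts on host exons, for the 8 hosts that carry such genes, in the siNT (blue) and siCnot1 (red) libraries, with circles for replicate 1, triangles for replicate 2 and bars for group means. The gap is widest for Snhg3, at 68.5 and 56.7 against 81.3 and 80.1, while Snhg12 and Snhg17 overlap.

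Genes that start next to a host on the opposite strand can share its promoter region. Slc3a2, which encodes the heavy chain of amino acid transporters, starts 118 bp from Snhg1 and had 198 and 201 normalized CPM in siNT and 238 and 236 in siCnot1. It rose (log2 fold change 0.25, SE 0.0560, adjusted p = 0.00158 from edgeR), while Snhg1 was at -0.14 and did not pass. Without siNT replicate 1 or without siCnot1 replicate 1 the rise of Slc3a2 did not pass the threshold, and the difference between the neighbours was not tested. Zbtb37, 261 bp from the start of Gas5 with a partial overlap of the 2 spans, had 29.9 and 27.2 in siNT and 29.3 and 24.3 in siCnot1 (log2 fold change -0.093, adjusted p = 0.566 from edgeR), a value like that of Gas5.

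Hosts outside the 10 were compared by 2 lists. Of 11 tested noncoding hosts, 3 were lower and 1 higher, with a median log2 fold change of -0.25. The imprinted host Rian fell (log2 fold change -0.72, adjusted p = 1.58e-09 from edgeR), as did Snhg4 (-0.37, adjusted p = 0.0218) and Zfas1 (-0.34, adjusted p = 0.0235), while Snhg11, a host prominent in neurons, rose from 29.8 and 37.7 to 101.2 and 78.6 normalized CPM (1.41, adjusted p = 1.7e-09). The number lower was 2 with DESeq2 and 1 with library totals only, without the filter on low counts, or with any of the 4 libraries left out. Of 17 protein-coding hosts, 15 were lower, 0 were higher and 17 of 17 values were negative, with a median of -0.25. Beside the 0 higher, 0 were higher at an unadjusted p under 0.05, by DESeq2 or by limma-voom. Hspa8, a constitutive chaperone, was at -0.42 and Eef1b2, a translation elongation factor, at -0.44, close to the value of Snhg3. Protein-coding hosts were thus called lower more often (15 of 17) than the noncoding hosts studied here (3 of 10), a difference of counts that was not tested. Their counts were also higher, at 3274 to 129387 per library with SEs of 0.04996 to 0.0641, against 198 to 2705 counts and SEs of 0.0729 to 0.165 for the 10 hosts, so that equal fold changes would be called more often among them. With a library left out, 8 to 12 of the protein-coding hosts were lower.

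The proteins that act on snoRNAs and on NMD substrates were examined next. Of 17 snoRNP proteins and assembly factors, 9 were lower and 0 higher (0 also at an unadjusted p under 0.05, by DESeq2 and by limma-voom), with a median of -0.20. They included fibrillarin, the box C/D methyltransferase (Fbl, -0.43), and the assembly ATPase Ruvbl1 (-0.44); Nop56, Nop58 and Dkc1 are members of both this list and that of protein-coding hosts. The number lower was 4 with library totals only, 5 without the filter on low counts and 2 to 5 with a library left out. Of 13 NMD factors, 2 were higher and 3 lower with a median of -0.080. The central helicase Upf1 was at -0.24 (adjusted p = 0.00514 from edgeR) and Upf3a at -0.23 (adjusted p = 0.0378), while Upf2 was at 0.26 (adjusted p = 0.0028) and Smg5 at 0.21 (adjusted p = 0.00655). With library totals only, 4 were higher and 0 lower, without the filter on low counts 2 were higher and 0 lower, and with each of the 4 libraries left out in turn 0 to 1 passed in either direction, so these calls are not firm.

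The exon junction complex, which marks spliced exons for NMD, had 3 of 5 genes lower and 0 higher. Rbm8a fell from 382 and 354 to 212 and 227 normalized CPM (-0.75, adjusted p = 3.07e-09 from edgeR), Magoh was at -0.42 and Eif4a3 at -0.27, both lower, and Casc3 (-0.048) and Magohb (-0.027) did not pass. Of 11 coding genes listed for transcripts known as NMD substrates, 3 were higher and 6 lower. Gadd45g rose by a log2 fold change of 2.83 on no more than 1.55 normalized CPM, Atf4 rose by 0.31 and Atf3 by 1.10, while Gadd45a (-0.52) and Srsf7 (-0.26) were the lower genes with the smallest adjusted p. The numbers were 4 higher and 3 lower with library totals only, 2 and 3 without the filter on low counts, and 0 to 2 higher and 2 to 5 lower with a library left out. The genes of this list thus went in both directions. Counts per gene do not separate transcripts subject to NMD from others of the same gene. Of the 10 hosts 0 rose, where 15.0% of all tested genes were higher. Among tested genes with exons of 407 to 1011 bp, the range of 8 of the hosts, 4.51% were higher. In a set of 10 genes a count of 0 is close to these shares, and its relation to NMD was not tested.

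**Figure D4:**
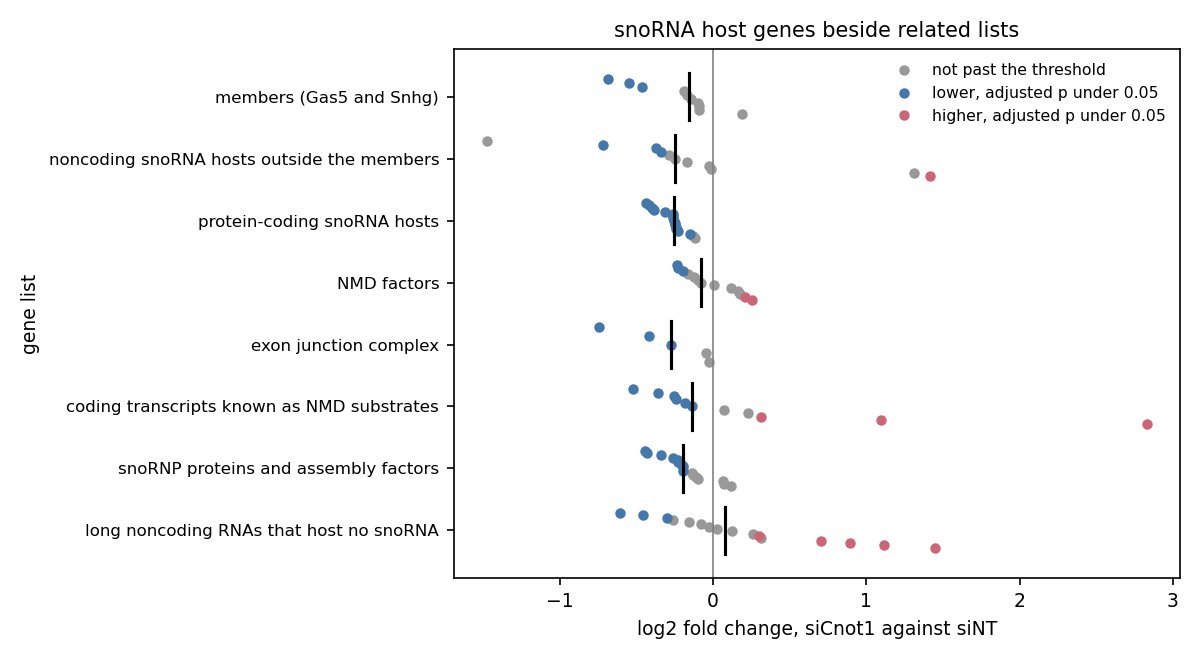
Log2 fold change (siCnot1 against siNT) of each tested gene in 8 lists, with black bars for list medians and colours for genes lower (blue) or higher (red) at an adjusted p under 0.05. The 10 hosts have a median of -0.16, between those of the NMD factors (-0.080) and the protein-coding hosts (-0.25).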

How the data were processed

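Raw counts per gene were deposited by the authors for 4 poly(A)+ libraries, 2 per group, without normalization or pooling; read pairs came from a strand-marking (dUTP) protocol. The submitters' processing notes name fastp 0.19.4, HISAT2 2.2.1, DESeq2 1.40.2 and mm10. The counting program and its strand setting are not given in the sources used here. The table names no build, and its gene positions, taken here as GRCm39, differ from those of GRCm38.p6, so no coordinates were joined across builds. Every sample column was matched to a label (0 unmatched).

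Counts were tested with edgeR 4.0.16 in R 4.3.3 (TMM, filterByExpr with a minimum count of 10, two-sided quasi-likelihood test, Benjamini-Hochberg adjustment over 18144 genes, condition as the only term), and a gene was called at an adjusted p under 0.05. The SE of a log2 fold change was its size over the root of the F statistic. p-values rest on the spread between 2 libraries a group, with the estimate for each gene drawn toward that of all genes tested. They are therefore no measure of a gene's own spread alone, and the 3-count floor covers counting error only. Alternatives were other scalings, other filters, DESeq2 1.42.0, limma-voom 3.58.1, a replicate block, the study's threshold and leaving out each library. The hosts and lists were chosen with earlier results of these data known. Named were all hosts, Cnot1, neighbours within 1000 bp, 3 genes nearest to Gas5 in profile (among those of at least 10 CPM) and, per list, the 2 smallest adjusted p each way, or all genes of lists with at most 5; Zfas1, Upf3a, Atf3, Col1a1 and the snoRNA genes named were chosen after their values were seen, as were the pyrimidine run, the RefSeq snoRNA type, the ratio of snoRNA to host counts and the length range. A gene that this rule would name among the NMD factors is not reported here.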

Additional observations from a re-analysis of the deposited data

How the results depend on the processing

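Snhg5 was lower in every fit run at an adjusted p under 0.05, and the number of hosts called lower was 3 in every scaling, with DESeq2 and with limma-voom, 2 without the filter on low counts, 1 to 2 when a library was left out, and 0 at the study's threshold. Without Snhg5, a setting chosen after seeing the data, 2 hosts were lower with a median of -0.14. With the replicate block, 3 hosts were lower, the median of the hosts was -0.16, and 2524 genes were higher and 2431 lower; the block changed no call of a host. Deviations of same-numbered libraries correlated by 0.011, so the numbers, of which there are 2 pairs, were not taken to pair libraries. The median of the hosts was -0.048 with library totals only, a shift built into that scaling, and -0.19 to -0.15 when a library was left out. Library totals turned Gas5, Snhg12 and Snhg20 to 0.013, 0.013 and 0.011, and Snhg20 ran from -0.21 to 0.023 with a library left out. In a comparison added after seeing the data, library totals gave 4 hosts with both siCnot1 libraries below siNT in place of 7, and turned the log2 ratio of the summed 7 hosts not called from -0.096 to 0.011. Over all genes, 1303 were higher and 1450 lower without the filter on low counts, 1563 were lower with library totals, and 743 to 1439 were higher and 871 to 1463 lower with a library left out, where 1 group has a single library assumed to vary like the other. Of the neighbours, 0 to 1 (Slc3a2) were higher with a library left out. The causes of the other changes were not tested. With 2 libraries per group, depth limited the hosts with the fewest counts: the interval of Snhg6 (-0.49 to 0.16) still held a fall of the size seen in Snhg3.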

Other observations

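Long noncoding RNAs that host no snoRNA moved in both directions. Of 16 tested with edgeR, 5 rose and 3 fell (adjusted p under 0.05), with a median log2 fold change of 0.075. Xist, the RNA that coats the inactive X chromosome, rose from 3.12 and 3.67 to 10.3 and 8.22 normalized CPM (log2 fold change 1.45), and Kcnq1ot1, an imprinted nuclear RNA, rose from 17.1 and 18.3 to 31.0 and 26.7 (0.71). Meg3, which belongs to the same imprinted locus as the host Rian, fell (-0.61), as did Lncenc1, an RNA abundant in ESCs (-0.46). The remaining calls, chosen for mention after their values were seen, were Malat1 (0.30), Tsix (0.89) and Miat (1.11), higher, and Oip5os1 (-0.30), lower. Without the filter on low counts 3 were higher and 2 lower, and with a library left out in turn 2 to 3 were higher and 2 lower.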
